A study of Homo sapiens with 5 samples.

Results

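The genes described here are 10 members of the S100 family of calcium-binding proteins: S100A2, S100A3, S100A4, S100A6, S100A10, S100A11, S100A13, S100A14, S100A16 and S100P. They were chosen by name, with earlier results of these data known. Every deposited transcript that the GENCODE v44 annotation assigns to them, 44 in all, was summed per gene, and all 10 passed the filter on low values, among 13492 genes tested and 26426 genes with a read. The RNA came from NCI-H1975 and HCC827, established human cell lines derived from lung adenocarcinoma, which were grown separately. RNA of NCI-H1975 was labelled as carrying mix A of the sequins, which are synthetic spike-in transcripts, and RNA of HCC827 as carrying mix B. The RNAs were combined in steps of 25% by mass, from NCI-H1975 alone to HCC827 alone, and each step gave 1 library of PCR-amplified cDNA read on a nanopore PromethION flow cell. In library names the NCI-H1975 share comes first: 100:0 is NCI-H1975 alone, and 25:75 holds 25% of it. The labels name no drug for either line, and cells were grown to near confluence.

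S100 proteins are small and usually work as dimers. Each chain carries a pair of EF-hands, the helix-loop-helix folds that hold calcium, and calcium opens a surface that grips partner proteins such as annexins and myosin. Several family members are also released from cells and act on receptors such as RAGE, and in epithelial tumours the family is studied for its part in motility and differentiation.

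Each ratio had 1 library and each line 1 RNA preparation, so p-values measure the scatter of these 5 libraries about a trend and not the spread between cultures. The libraries held 2932250 to 4058751 assigned reads. In mixture order, the mean length of the transcripts read went from 2579 bases at 100:0 to 2180 bases at 0:100, and mitochondrial reads went from 5.64% to 8.85%. Sequin reads numbered 5475, 4678, 2830, 1269 and 0 from 100:0 to 0:100. The 0 at 0:100 goes against its label, which names mix B, so results are also given without that library where they change. Of 9 lung epithelial markers, 9 passed the filter, and their summed level was 5701 at 100:0 and 16404 at 0:100 in CPM, reads scaled to a common library size by TMM. Of 6 fibroblast markers, 2 passed (COL1A1 and COL1A2), DCN was at 0 in every library, and the summed level was 189 CPM at 100:0 and 7.55 CPM at 0:100. In the leukocyte list, PTPRC, CD3E and LYZ were at 0 in every library, and 1 of 5 genes (CD68) passed. The summed level of that list ran from 58.0 to 95.8 CPM. The members' transcripts are short, with mean lengths of 419 bases (S100P) to 1158 bases (S100A16), and a fit that removed each library's trend with transcript length is given where it changed a call. The part of the markers and of mitochondrial reads in the results below was not tested. In a mixture of bulk RNA, fewer cells of a line and less RNA per cell cannot be told apart.

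The best known shared stretch of the family is the second calcium loop, a canonical EF-hand loop of 12 codons in the later part of the chain. It is shown for all 10 members because it is what they share and where they differ. The bases were read from the GENCODE v44 transcript marked canonical for each gene (GRCh38), inside the coding sequence, on the coding strand. Capitals mark the codons of loop positions 1, 3, 5 and 12, whose side chains hold calcium.

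S100A2: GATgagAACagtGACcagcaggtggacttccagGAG
S100A3: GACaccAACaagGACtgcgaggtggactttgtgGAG
S100A4: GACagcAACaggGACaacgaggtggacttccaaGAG
S100A6: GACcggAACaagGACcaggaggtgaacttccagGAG
S100A10: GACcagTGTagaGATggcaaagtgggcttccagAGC
S100A11: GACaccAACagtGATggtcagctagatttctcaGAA
S100A13: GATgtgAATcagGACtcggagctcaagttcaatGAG
S100A14: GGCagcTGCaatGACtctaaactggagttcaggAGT
S100A16: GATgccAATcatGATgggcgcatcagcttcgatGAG
S100P: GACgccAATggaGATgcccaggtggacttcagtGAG

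Read as codons, 8 of the 10 matched a loop pattern with an acidic codon at position 1, calcium-holding side chains at positions 3 and 5, and an acidic codon at position 12. Of these, 2 (S100A11 and S100A16) also had glycine at position 6, as the textbook EF-hand loop does. S100A10 and S100A14 did not match, and their loops were placed by alignment to S100A6. Both have a serine codon at position 12, AGC in S100A10 and AGT in S100A14, where the other 8 have GAG or GAA, and S100A14 also has a glycine codon (GGC) at position 1. S100A10 is known to hold its open shape without calcium, and S100A14 is known for weak calcium binding. The loop of S100A2 lies at chr1:153561511-153561546, that of S100A14 at chr1:153614951-153614986, and that of S100P at chr4:6696938-6696973. The coding sequences hold 90 to 105 codons before the stop. Over the 45 pairs of members, aligned coding bases were identical at 42.2% to 69.3% of columns, with a median of 52.1%. The closest pair was S100A2 and S100A4.

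All members but S100P lie on chromosome 1, on the minus strand, in 2 stretches of the family's main cluster. S100P lies alone on chromosome 4, on the plus strand. The genes differed widely in level and direction along the mixture. S100A2 and S100A3 were highest in NCI-H1975, S100A14 and S100P were highest in HCC827, S100A16 was modestly higher in NCI-H1975, and S100A6, the most abundant member, differed modestly. Of the 10 members, 7 had a slope past the threshold, beside 45.7% of all genes tested. The 4 that rose with HCC827 (S100A6, S100A13, S100A14 and S100P) stand beside 23.5% of all genes, and the 3 that fell (S100A2, S100A3 and S100A16) beside 22.3%. The members' median slope was -0.10, beside -0.035 over all genes tested. A slope gives the log2 change that the edgeR quasi-likelihood model fitted between NCI-H1975 alone and HCC827 alone. Its p-values carry the Benjamini-Hochberg adjustment over all genes tested. The model is straight on the log scale, while mixing by mass is straight in level. For genes far apart, that bend counts as scatter, and the slope can differ from the log2 ratio of the pure libraries. The slope was 2.69 and that ratio 3.86 for S100P, and -3.19 and -3.76 for S100A2. With library totals in place of TMM scaling, the median slope of all genes moved to -0.45 and the members split into 2 that rose and 6 that fell. Over all genes, 51.3% were called in that fit, 13.4% rising and 37.9% falling. Without the 0:100 library, 4 members were called, 2 in each direction, beside 30.5% of all genes, 16.9% rising and 13.6% falling.

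**Figure D1:**
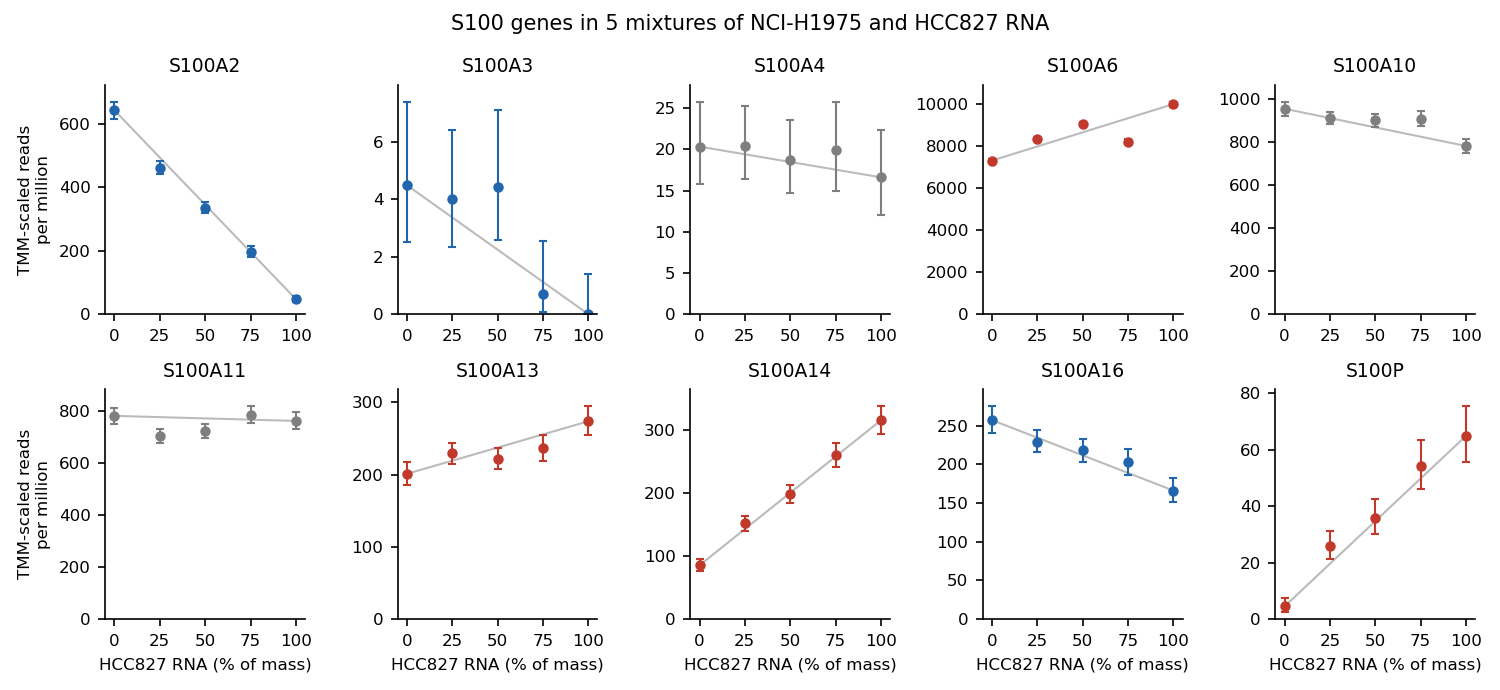
Level of each S100 gene (vertical axes, TMM-scaled CPM, each from 0) against the HCC827 share of RNA mass (horizontal axes, %). Points are single libraries with exact 95% Poisson intervals on the reads, grey lines join the pure libraries, and red, blue and grey points mark genes that rose, fell or did not pass the test; S100A14 runs close to its line, S100P stands at 1.32 of its line at 75:25 and S100A6 at 0.881 at 25:75.

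S100A2, a protein known from keratinocytes, was among the steepest members of the family. It lies at chr1:153561108-153567890 on GRCh38. It had 2149 reads at 100:0, 1960 at 75:25, 1289 at 50:50, 557 at 25:75 and 126 at 0:100. Scaled levels were 642, 461, 336, 198 and 47.5 CPM in that order. Each library was lower than the one before it, and the 0:100 library stood far below the rest. The slope was -3.19 ± 0.38 (SE; adjusted p = 3.01e-05, edgeR quasi-likelihood), a larger absolute slope than that of 97.9% of the genes tested. Between the pure libraries, S100A2 was 13.5-fold lower in HCC827, with a 95% interval from counting error of 11.3 to 16.3. That size depends on the scaling. Under library totals the log2 ratio was -4.18, outside the TMM interval of -4.03 to -3.50. It was called in 13 of 13 alternative fits, with slopes from -3.79 without the 100:0 library to -2.21 without the 0:100 library.

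S100P, first found in placenta and known as a ligand of RAGE and a partner of ezrin, ran the opposite way. It lies at chr4:6693878-6697170 on GRCh38. It had 15 reads at 100:0, then 110, 138, 153 and 172. Scaled levels were 4.48, 25.9, 35.9, 54.3 and 64.9 CPM. The 100:0 library was far below the others, which rose in mixture order. The slope was 2.69 ± 0.41 (SE; adjusted p = 1.97e-04, edgeR quasi-likelihood). The level in HCC827 was 14.5-fold that in NCI-H1975, with a counting interval of 8.53 to 26.4 that is wide because 1 of the counts is small. All 13 alternative fits called it, with slopes from 1.82 without the 100:0 library to 3.46 without the 0:100 library.

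S100A14, an epithelial member with the altered loop shown above, also rose. It lies at chr1:153614255-153616986 on GRCh38. Its reads were 286, 648, 761, 734 and 838 from 100:0 to 0:100, and its levels 85.5, 152, 198, 260 and 316 CPM. The levels rose at every step of the mixture. The slope was 1.78 ± 0.16 (SE; adjusted p = 6.21e-06, edgeR quasi-likelihood). HCC827 was 3.70-fold higher, with a counting interval of 3.23 to 4.24, and 13 of 13 alternative fits called the gene. Under library totals the log2 ratio of the pure libraries was 1.47, outside the TMM interval of 1.69 to 2.09.

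S100A16, which is known to pair with S100A14 in a heterodimer, moved in the other direction. It lies next to S100A14 at chr1:153606886-153613145 on GRCh38. Its reads were 860, 976, 837, 572 and 440, and its levels 257, 229, 218, 203 and 166 CPM. The levels fell at every step, over a much narrower range than those of S100A2. The slope was -0.57 ± 0.12 (SE; adjusted p = 0.00192, edgeR quasi-likelihood), and HCC827 was 1.55-fold lower (counting interval 1.38 to 1.74). This gene too was called in 13 of 13 alternative fits. Under library totals its log2 ratio of the pure libraries was -1.05, outside the TMM interval of -0.80 to -0.46.

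**Figure D2:**
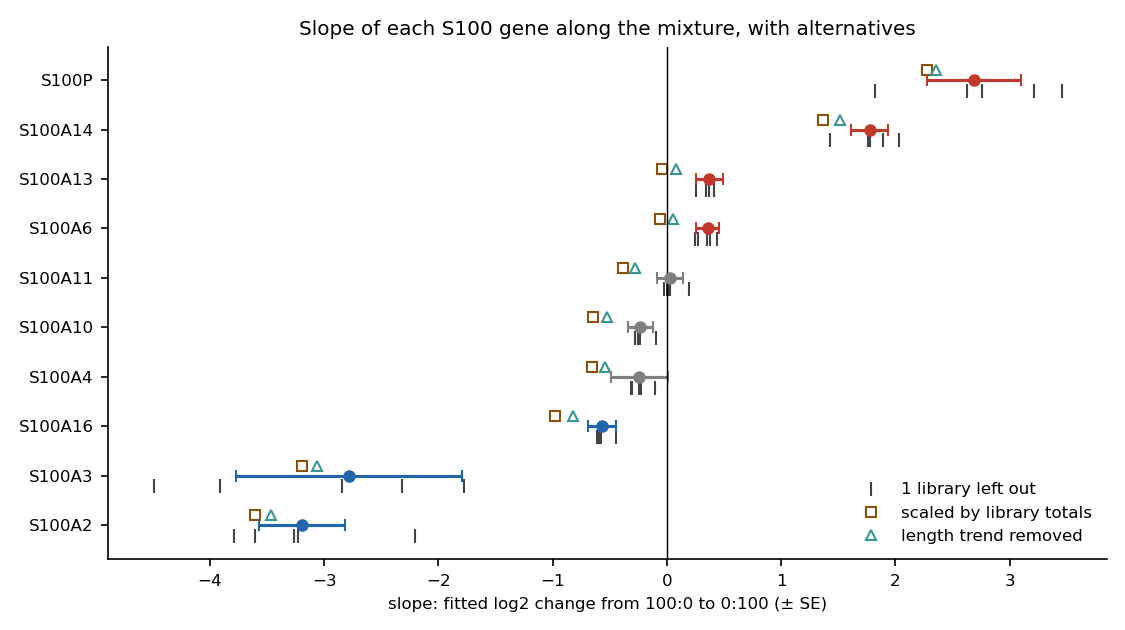
Slope of each S100 gene (horizontal axis, fitted log2 change between the pure libraries, HCC827 over NCI-H1975, ± SE), with genes on the vertical axis; filled circles are red where the gene rose, blue where it fell and grey where it did not pass. Ticks show fits that leave out 1 library, squares scaling by library totals and triangles removal of the length trend; S100A6 and S100A13 lie near 0 under the last 2 and S100A2, S100A14, S100A16 and S100P keep their side of 0 in all.

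For S100A2, S100A14 and S100P, the bases before a start site are shown, since these genes differed widely between the lines. The sequences come from the RefSeq promoter table (GRCh38.p14) and run from base -250 to the base before the start site, except that the S100A14 stretch ends at base -31, where an annotated exon begins. The start site is the one nearest to that of the canonical transcript. The S100A2 and S100A14 stretches lie outside annotated exons of these genes but inside their spans, since other transcripts start farther upstream, and S100A2 has a second window in the table that held none of the motifs below. Capitals mark matches, on either strand, to TATAAA (the TATA box), TGANTCA (the AP-1 site) or GGGCGG (the core of the GC box). The S100A2 stretch is chr1:153565845-153566094 on the minus strand, the S100A14 stretch chr1:153616356-153616575 on the minus strand, and the S100P stretch chr4:6693628-6693877 on the plus strand.

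S100A2: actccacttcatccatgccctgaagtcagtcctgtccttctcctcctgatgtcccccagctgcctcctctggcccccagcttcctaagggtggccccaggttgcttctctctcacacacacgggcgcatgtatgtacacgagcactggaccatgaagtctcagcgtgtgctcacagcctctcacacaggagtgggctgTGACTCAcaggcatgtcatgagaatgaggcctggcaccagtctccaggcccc
S100A14: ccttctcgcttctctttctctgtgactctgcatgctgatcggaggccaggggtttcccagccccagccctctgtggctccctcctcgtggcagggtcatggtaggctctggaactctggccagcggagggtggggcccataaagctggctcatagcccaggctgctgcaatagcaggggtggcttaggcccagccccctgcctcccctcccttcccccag
S100P: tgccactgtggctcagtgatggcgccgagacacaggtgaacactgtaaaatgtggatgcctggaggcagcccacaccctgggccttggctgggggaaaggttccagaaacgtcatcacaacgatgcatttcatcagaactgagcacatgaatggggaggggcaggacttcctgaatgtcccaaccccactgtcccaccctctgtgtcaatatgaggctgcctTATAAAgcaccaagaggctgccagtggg

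S100P had TATAAA from base -28, and S100A2 had TGANTCA from base -52. S100A14 had none of the 3 in this stretch. Over all 35116 windows of 300 bases in the table, TATAAA stood in 11.5%, TGANTCA in 7.71% and GGGCGG in 45.0%. The 10 members have 14 such windows, of which 3 held TATAAA, 2 held TGANTCA and 6 held GGGCGG. A match describes letters in a window and shows neither binding nor use.

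S100A6, S100A10 and S100A11 were the most abundant members in both lines, and differed by at most 1.37-fold between the pure libraries under TMM scaling. Under library totals, the log2 ratio of HCC827 to NCI-H1975 was -0.71 for S100A10. S100A6, or calcyclin, is known to bind CACYBP and annexins. It lies at chr1:153534599-153536244 on GRCh38. It had 24511, 35459, 34770, 23213 and 26559 reads, which was 0.754% to 0.896% of all reads in a library. Its levels were 7327, 8335, 9055, 8233 and 10021 CPM. The lowest was 100:0 and the highest 0:100, but the 25:75 library broke the order. The slope was 0.36 ± 0.098 (SE; adjusted p = 0.00957, edgeR quasi-likelihood), and HCC827 was 1.37-fold higher (counting interval 1.34 to 1.39). This direction flipped to -0.06 (adjusted p = 0.636) with scaling by library totals, where the gene still lay 0.39 above the median of all genes. With the length trend removed the slope was 0.05 (adjusted p = 0.669), and without the 0:100 library it was 0.25 (adjusted p = 0.148).

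S100A10, or p11, forms a complex with annexin A2 that binds plasminogen activator and AHNAK at the cell membrane. It lies at chr1:151982915-151993859 on GRCh38. It had 3186, 3874, 3449, 2552 and 2067 reads, and levels of 952, 911, 898, 905 and 780 CPM. The 4 libraries that hold NCI-H1975 RNA lay close together and the 0:100 library was lowest. The slope of -0.23 ± 0.11 (SE) did not pass (adjusted p = 0.106, edgeR quasi-likelihood). It passed with scaling by library totals (-0.65, adjusted p = 3.14e-04), with at least 10 reads in every library (-0.29, adjusted p = 0.0429) and with the length trend removed (-0.52, adjusted p = 0.00176).

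S100A11, or calgizzarin, binds annexin A1. It lies at chr1:152032506-152047907 on GRCh38. It had 2608, 2988, 2776, 2207 and 2015 reads, and levels of 780, 702, 723, 783 and 760 CPM. The pure libraries were nearly level, with a ratio of HCC827 to NCI-H1975 of 0.975 (counting interval 0.920 to 1.03). The slope was 0.03 ± 0.11 (SE; adjusted p = 0.840, edgeR quasi-likelihood), and it turned to -0.38 (adjusted p = 0.0122) with scaling by library totals. None of the 8 S100A11 pseudogenes named in GENCODE v44 held a read.

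S100A13 is known for its part in the release of FGF1, a growth factor without a signal peptide. It lies at chr1:153618787-153631360 on GRCh38. It had 673, 976, 853, 666 and 726 reads, and levels of 201, 229, 222, 236 and 274 CPM. The pure libraries were the lowest and the highest, with the mixed ones close together between them. The slope was 0.37 ± 0.12 (SE; adjusted p = 0.0229, edgeR quasi-likelihood), and HCC827 was 1.36-fold higher (counting interval 1.22 to 1.51). The direction flipped to -0.04 (adjusted p = 0.790) under library totals, where the gene lay 0.41 above the median of all genes. It did not pass without the 100:0 library (0.35, adjusted p = 0.0894), without the 0:100 library (0.25, adjusted p = 0.231), with the length trend removed (0.08, adjusted p = 0.627) or without a read filter (0.34, adjusted p = 0.0572).

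S100A4 and S100A3 had the fewest reads on chromosome 1. S100A4, a myosin-binding protein linked to metastasis, lies at chr1:153543613-153550136, and S100A3, a protein of the hair cuticle, lies inside that span at chr1:153547329-153549258 on the same strand, so reads could be divided between them in error. S100A4 had 68, 87, 72, 56 and 44 reads, and levels of 20.3, 20.5, 18.8, 19.9 and 16.6 CPM. Its slope was -0.24 ± 0.25 (SE; adjusted p = 0.453, edgeR quasi-likelihood), and of 13 alternative fits it passed in 1, with scaling by library totals (-0.65, adjusted p = 0.0413). S100A3 had 15, 17, 17, 2 and 0 reads, that is 4.48 CPM at 100:0, 4.43 at 50:50, 0.709 at 25:75 and 0 at 0:100. Its 3 libraries richest in NCI-H1975 were alike and the other 2 were near 0. The slope was -2.78 ± 0.99 (SE; adjusted p = 0.0351, edgeR quasi-likelihood). With 0:100 taken at a floor of 3 reads, S100A3 was 3.96-fold lower in HCC827, a bound set by the floor. Its interval of 1.12 to 21.35 treats the 3 reads of the floor as counted. It is therefore not the counting error of the 0 reads found. The ratio depends on the floor: with 10 reads in its place, the log2 ratio of HCC827 to NCI-H1975 was -0.25. The call was lost without the 75:25 library (-2.84, adjusted p = 0.0760), without 25:75 (-2.32, adjusted p = 0.127) and without 0:100 (-1.78, adjusted p = 0.208).

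Levels were compared between genes per kilobase of the transcripts read. In NCI-H1975, S100A6 led with 13058 CPM per kilobase, followed by S100A10 with 1432, S100A11 with 1391 and S100A2 with 912. S100A13 had 332, S100A16 had 222, S100A14 had 78.2, S100A4 had 36.0, S100P had 10.5 and S100A3 had 6.04. S100A2 thus stood among the leading members in NCI-H1975 and near the end of the order in HCC827. In HCC827, S100A6 had 17883 CPM per kilobase, S100A11 had 1356, S100A10 had 1173 and S100A13 had 444. S100A14 followed with 293, S100P with 162, S100A16 with 143, S100A2 with 69.3, S100A4 with 29.1 and S100A3 with 0. Per kilobase, S100A10 was above S100A11 in the 3 libraries richest in NCI-H1975 and below it in the other 2. Some of these orders rest on the division by length. Without it, S100A10 was above S100A11 in every library, at 952 against 780 CPM at 100:0 and 780 against 760 CPM at 0:100. At 100:0, S100A16 (257 CPM) then stood above S100A13 (201 CPM). At 0:100, S100A14 (316 CPM) stood above S100A13 (274 CPM), and S100A16 (166 CPM) above S100P (64.9 CPM). With 1 library per ratio, no spread over libraries of one kind stands behind these orders.

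The 10 members together held 1.17%, 1.16%, 1.16%, 0.998% and 1.07% of all assigned reads from 100:0 to 0:100. S100A6 alone gave 71.3% of the members' reads at 100:0 and 80.5% at 0:100. The other 9 summed to 2948 CPM at 100:0 and 2425 CPM at 0:100. From 100:0 to 0:100, S100A6 held 0.836%, 0.874%, 0.896%, 0.754% and 0.859% of all reads, lowest at 25:75. As a share of reads, the other 9 members together fell at every step, also at 25:75. In CPM, which carries the TMM scaling, they summed to 2660 there, between 2654 at 50:50 and 2735 at 75:25.

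The mixed libraries were then set against the straight line between the pure libraries, which is what mixing by mass would give for a level that adds up. Intervals here cover the reads of the mixed library only. S100A2 had 0.933 of the reads on its line at 75:25 (0.892 to 0.975), 0.973 at 50:50 (0.921 to 1.03) and 1.01 at 25:75 (0.925 to 1.09). With scaling by library totals, the S100A2 values were 0.861, 0.857 and 0.844. S100A14 had 1.06, 0.987 and 1.01 of its line, and each interval included 1. S100A16 had 0.979, 1.03 and 1.07, and each of its intervals included 1 as well. S100P was above its line at 75:25, at 1.32 (1.09 to 1.59), and within counting error at 50:50 (1.04) and 25:75 (1.09). These values too depend on the scaling. Under library totals they were 1.13, 1.07 and 1.05 for S100A14 and 0.940, 0.990 and 1.03 for S100A16. For S100P they were 1.53, 1.17 and 1.16. As positions between the pure libraries, S100A2 stood at 30.5%, 51.6% and 74.8% of the way to HCC827, S100A14 at 29.0%, 48.8% and 75.8%, and S100P at 35.4%, 52.1% and 82.4%. Over the 1477 genes at least 4-fold apart, the median positions were 29.7%, 48.8% and 72.1%.

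S100A6 left its line by more than counting error in every mixed library, at 1.04 (75:25), 1.04 (50:50) and 0.881 (25:75, interval 0.870 to 0.892). Its counts are large, so these intervals are narrow. S100A10 stood at 1.04 (1.003 to 1.07) at 50:50 and 1.10 (1.06 to 1.14) at 25:75. S100A11 stood at 0.907 (0.874 to 0.940) at 75:25 and 0.939 (0.904 to 0.975) at 50:50, and S100A13 at 0.924 (0.855 to 0.997) at 25:75. The farthest was S100A3 at 50:50, at 1.97 (1.15 to 3.16), on 17 reads. Each of these departures was larger than the counting error of the mixed library's own reads. The pure libraries that set the line carry counting error too, which these intervals leave out. The S100A3 line rests on 15 and 0 reads, and the intervals of S100A10 at 50:50 and S100A13 at 25:75 end close to 1. No replicate library shows how far one library strays.

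**Figure D3:**
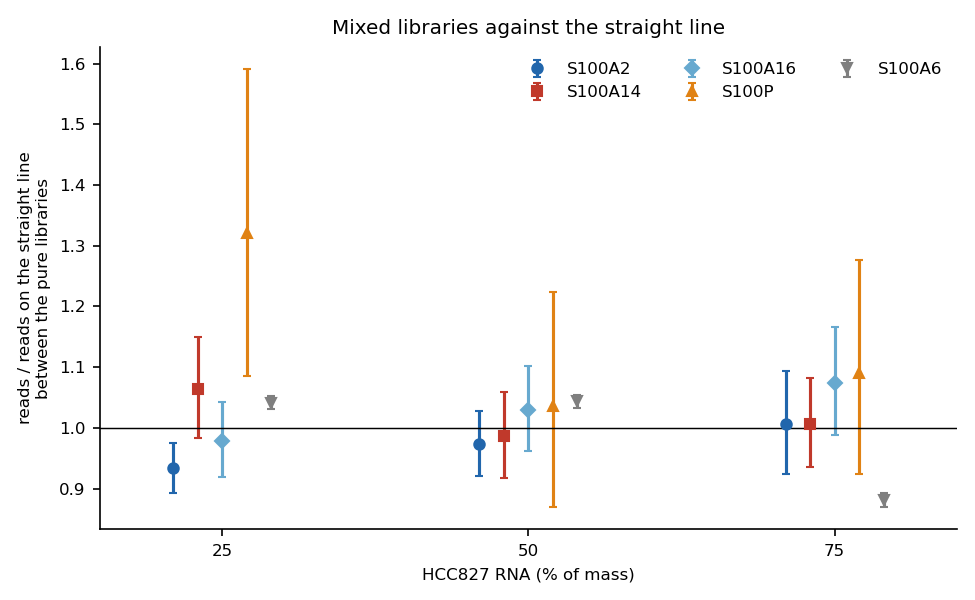
Reads of 5 S100 genes in the mixed libraries, divided by the reads on the straight line between the pure libraries (vertical axis, ratio), against the HCC827 share of RNA mass (horizontal axis, %, points moved sideways to keep them apart). Bars are exact 95% Poisson intervals on the reads of the mixed library; S100A6 lies at 0.881 at 25:75 and S100P at 1.32 at 75:25, and the others lie between 0.933 and 1.09.

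Transcript usage did not shift past the threshold in any member. Of 9 members with at least 2 transcripts tested, 0 were called (edgeR diffSpliceDGE, Simes p-values with Benjamini-Hochberg adjustment), beside 0.416% of 7455 genes. At an unadjusted p under 0.05 there were 0 by the Simes test and 1, S100A14, by the gene-level F test (adjusted p = 0.612, edgeR diffSpliceDGE). In S100A14, the share of S100A14-203 was 18.2%, 22.1%, 23.3%, 26.8% and 27.4% in mixture order, and that of S100A14-204 was 31.1%, 25.3%, 27.7%, 21.4% and 22.4%. S100A14-201 and S100A14-206 stayed between 22.2% and 27.3%.

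In S100A2, S100A2-202 gave 42.5% of reads at 100:0 and 39.7% of the 126 reads at 0:100, and no shift in its transcripts passed the test. S100A2-204, S100A2-205 and S100A2-206 gave 15.6% to 18.5% in every library. S100A6 was split among S100A6-201 (34.7% to 37.4%), S100A6-202 (30.2% to 32.0%) and S100A6-205 (32.1% to 33.1%). S100A10-202 gave 90.5% to 91.5% of S100A10, and S100A11-201 gave 55.6% to 59.6% of S100A11 beside S100A11-202. S100A16 was split evenly between S100A16-202 (46.9% to 52.8%) and S100A16-204 (47.0% to 52.7%). S100A13-205 (30.5% to 39.2%) and S100A13-201 (23.0% to 28.2%) led S100A13, with S100A13-202, S100A13-203 and S100A13-204 at 9.31% to 17.1%. S100P-201 gave 64.5% to 80.0% of S100P, the highest share resting on 15 reads, and S100P-202 the rest. S100A3-202 gave 15 of 15 reads of S100A3 at 100:0, and S100A4-201 to S100A4-206 divided the few reads of S100A4. Many of these transcripts share most of their bases, so the division of reads among them is an estimate.

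**Figure D4:**
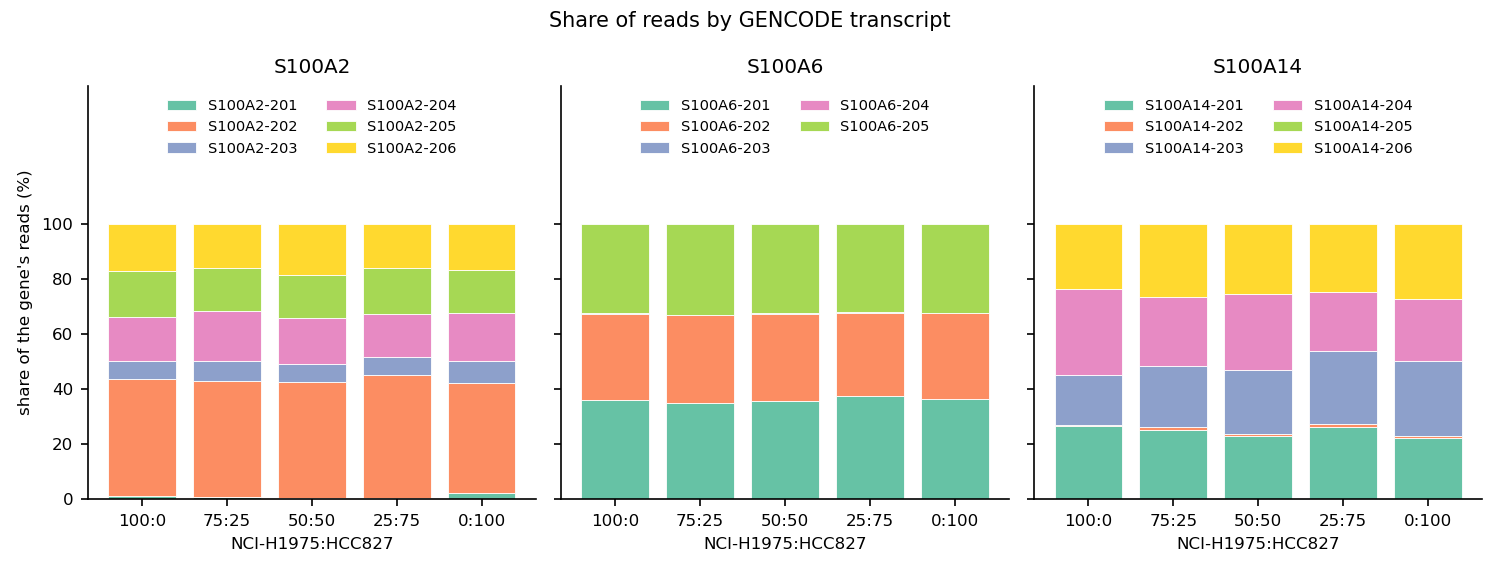
Share of each gene's reads by GENCODE transcript (vertical axis, %) in the 5 libraries (horizontal axis, ratio of NCI-H1975 to HCC827) for S100A2, S100A6 and S100A14. Stacked bars add to 100%; the S100A6 shares are nearly level, and S100A14-203 goes from 18.2% to 27.4% while S100A14-204 goes from 31.1% to 22.4%.

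The rest of the S100 family was nearly absent, apart from S100A9. Because the members were chosen with earlier results known, the contrast with them can follow from that choice. Of 11 further S100 genes, 1 passed the read filter: S100A9, which with S100A8 forms calprotectin in neutrophils. S100A9 had 81, 76, 44, 29 and 15 reads, and levels of 24.2, 17.9, 11.5, 10.3 and 5.66 CPM. It fell at each step, with a slope of -1.95 ± 0.31 (SE; adjusted p = 2.42e-04, edgeR quasi-likelihood), and was called in 13 of 13 alternative fits. The leukocyte markers PTPRC, CD3E and LYZ were at 0 in these libraries. S100A8 had 5 reads in all 5 libraries together, S100A5 had 11, S100A7 had 6 and S100A1 had 1. S100A7A, S100A7L2, S100A12, S100B, S100G and S100Z had 0 reads in every library, where a count of 0 allows up to 3 reads.

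Of 22 genes for partners, cargo and receptors of S100 proteins, 17 were tested and 10 passed, 4 rising and 6 falling, beside 45.7% of all genes, with a median slope of -0.17. With scaling by library totals, 2 rose and 11 fell, beside 13.4% and 37.9% of all genes. ANXA2, the annexin that S100A10 binds, had 1088, 975, 993, 1072 and 892 CPM and did not pass (slope -0.17 ± 0.12 SE; adjusted p = 0.265, edgeR quasi-likelihood). AHNAK, the scaffold of the S100A10 and annexin A2 complex, fell from 405 to 134 CPM, with 344, 269 and 216 CPM between (-1.52 ± 0.15 SE; adjusted p = 7.73e-06, edgeR quasi-likelihood). PLAT, tissue plasminogen activator, fell from 52 to 7 reads (-1.99 ± 0.42 SE; adjusted p = 0.00198, edgeR quasi-likelihood).

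ANXA11, a partner of S100A6, rose through 113, 147, 197, 220 and 251 CPM (1.14 ± 0.13 SE; adjusted p = 2.72e-05, edgeR quasi-likelihood). ANXA6 fell from 45 reads at 100:0 to 2 at 0:100 (-2.93 ± 0.57 SE; adjusted p = 0.00115, edgeR quasi-likelihood). CACYBP, the calcyclin-binding protein, rose from 87.6 to 155 CPM (0.68 ± 0.15 SE; adjusted p = 0.00212, edgeR quasi-likelihood), and did not pass under library totals (0.27, adjusted p = 0.137). IQGAP1, a scaffold bound by several S100 proteins, fell from 150 to 86.8 CPM (-0.80 ± 0.13 SE; adjusted p = 3.95e-04, edgeR quasi-likelihood). ANXA1, the partner of S100A11, had 541 CPM at 100:0 and 500 CPM at 0:100 and did not pass (-0.10 ± 0.11 SE; adjusted p = 0.506, edgeR quasi-likelihood).

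MDM2, a ubiquitin ligase that S100 proteins are known to bind, had 38.0 CPM at 100:0 and 23.4 CPM at 0:100 (-0.72 ± 0.21 SE; adjusted p = 0.0120, edgeR quasi-likelihood), and did not pass without the 0:100 library (-0.58, adjusted p = 0.110), with the length trend removed (-0.36, adjusted p = 0.161) or in DESeq2's Wald test (-0.71, adjusted p = 0.0511). EZR, the ezrin gene, had 125 and 179 CPM in the pure libraries (0.44 ± 0.13 SE; adjusted p = 0.0121, edgeR quasi-likelihood). Its call was lost under library totals (0.03, adjusted p = 0.873), without the 100:0 library (0.39, adjusted p = 0.0738) and without the 0:100 library (0.33, adjusted p = 0.155). The receptor genes for secreted S100 proteins were near the floor, with 9 reads of AGER, which codes for RAGE, and 2 reads of TLR4 in all libraries together.

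The genes around the members did not share one direction. GENCODE v44 places 73 genes outside the S100 family within 250 kb of a member, of which 21 were tested and 6 passed, 2 rising and 4 falling, beside 45.7% of all genes, with a median slope of 0.06. Those that fell were THEM4, INTS3, SLC27A3 and ENSG00000170846, named after their values were seen. DESeq2's Wald test called 3 of the 21, beside 35.5% of all genes, and scaling by library totals called 6, all falling, beside 37.9% of all genes that fell in that fit. In the dense part of the cluster, S100A2 (-3.19) and S100A14 (1.78) lie within one stretch of minus-strand genes, with S100A16 (-0.57) between them. Antisense genes over the members held 9 reads (over S100A6) and 18 reads (ENSG00000229021, over S100A11), S100A1 over S100A13 held 1, and whether the counting used strand is not given in the sources used here.

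**Figure D5:**
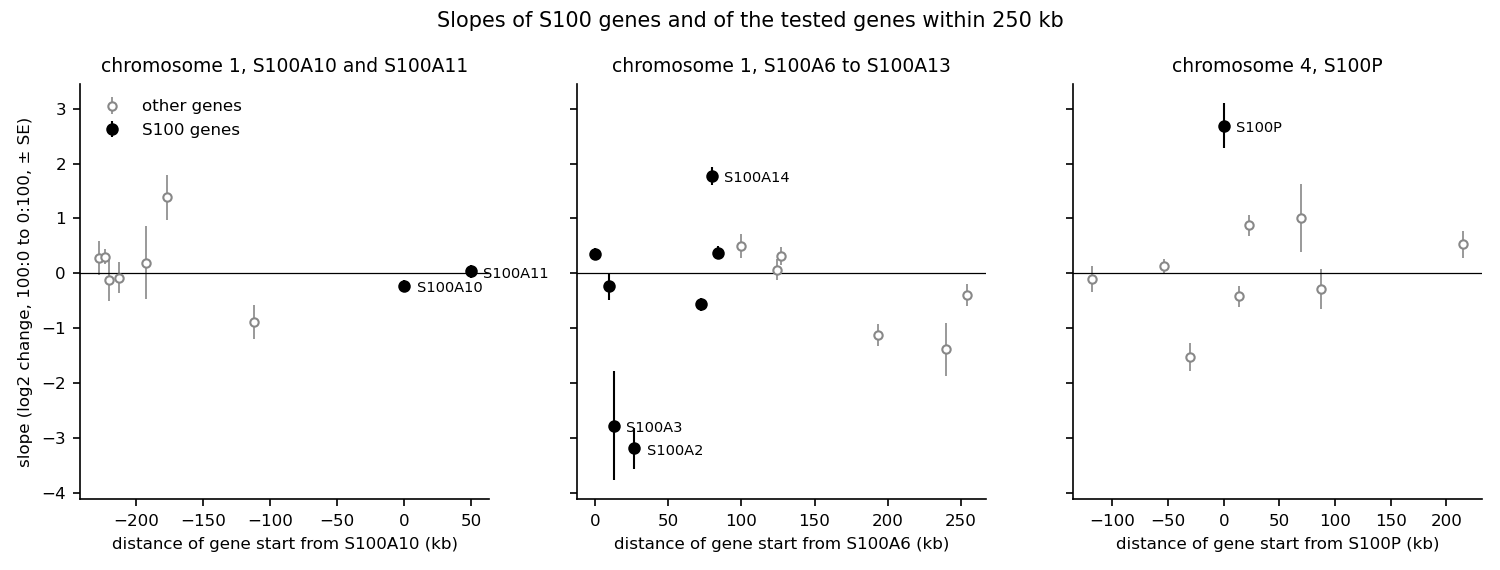
Slope (vertical axis, log2 change from 100:0 to 0:100, ± SE) of S100 genes (filled) and of the other tested genes within 250 kb (open), against the distance of the gene's lowest coordinate from S100A10, S100A6 or S100P (horizontal axes, kb). S100A2 at -3.19 and S100A14 at 1.78 lie within the same stretch of the middle panel.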

How the data were processed

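Mixtures of NCI-H1975 and HCC827 RNA were sequenced as cDNA, 1 library per ratio. The authors deposited 1 table per library of estimated counts of reads per transcript, with no scaling; the submitters' processing notes name minimap2 2.24, Salmon 1.9.0 and GRCh38 and give no roles, and the annotation release is not given in the sources used here. The 2 values that were not whole were rounded, and 161 identifiers listed a second time were summed. Identifiers were paired with genes through GENCODE v44: 224076 matched, with 98.6% of human reads, and 94.3% of these (42 of the members' 44) had the same length as in v44. Poly(A) selection, 16 PCR cycles and size selection, per the labels' protocols, can change the share of short transcripts such as these; no molecular identifiers were given, so intervals and floors cover counting error only.

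Gene sums with at least 10 reads in at least 2 libraries were fitted in edgeR 4.0.16 (R 4.3.3, quasi-likelihood test, TMM scaling) for a slope on the HCC827 mass fraction over all 5 libraries. Benjamini-Hochberg adjustment ran over 13492 genes, with a threshold of 0.05, and each SE was taken from the slope and its F statistic. Transcript usage was tested with diffSpliceDGE. Scatter about the trend, which is straight on the log scale, had a coefficient of variation of 9.11%. Pure-library ratios have exact 95% intervals from the 2 counts and shares have Wilson intervals. A count of 0 was taken as 3 reads, both in the ratio and in its interval. Library totals ran from 2932250 to 4058751 reads. The tests were run on simulated data first. Alternatives were DESeq2 1.42.0 (size factors and Wald test), limma-voom 3.58.1, library totals, other read filters, protein-coding transcripts only, each library left out, and, added after the data were seen, removal of each library's trend with transcript length. The members and lists were chosen with earlier results of these data known. All members are named; other S100 and partner genes are named where they passed, at most the 5 smallest adjusted p-values per direction, with ANXA1 and ANXA2 added after their values were seen as partners of named members, and transcripts where they held at least 10% of a member's reads in a pure library. Some genes that the rules would name are not reported here. Protein sequences were not analysed here; loops were found in translated coding sequences.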

Additional observations from a re-analysis of the deposited data

How the results depend on the processing

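Over 129 refits of the members' slopes, 11 lost a call, 5 gained one and 6 changed sign, some of them both at once. The sign changes were those of S100A6 (-0.0566) and S100A13 (-0.0412) under library totals, and of S100A11 under library totals (-0.383), after removal of the length trend (-0.2769), under the filter that asks 10 reads of each library (-0.0234) and without 75:25 (-0.0255, the lowest of its fits without 1 library, the highest being 0.1909 without 100:0). Library totals shift the median slope of all genes from -0.035 to -0.45; other causes were not tested. Fits without 1 library called 4 to 7 members, 4 of them without 0:100 (which has fewer samples and lacks an end of the series), 8 to 11 partner genes, 4 to 6 neighbouring genes and 1 other S100 gene. DESeq2's Wald test called 3 neighbouring genes in place of 6. All genes called numbered 6922 under library totals, 4791 with DESeq2 and 4068 without 0:100, in place of 6172. The members' share of reads without mitochondrial transcripts was 1.24% at 100:0 and 1.17% at 0:100, in place of 1.17% and 1.07%. Genes with few reads, S100A3, S100A4 and S100P at 100:0, are limited by depth. No paired analysis was possible because each ratio had 1 library and the libraries share 1 replicate number.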
